A study of Mus musculus with 74 samples.

Results

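White adipose tissue of male B6C3F1 mice that had received fenretinide, a synthetic retinoid, for 15 days was compared with white adipose tissue of vehicle mice of the same day. Of the 74 arrays of the series, 6 belong to this comparison, chosen by tissue, agent, day and study number in their titles. Vehicle mice 48, 49 and 50 received no compound. Fenretinide mice 57, 58 and 59 received 500 mg/kg in the diet, a dose that the labels describe as well above the high dose of the carcinogenicity studies. Each array measured total RNA of whole tissue from 1 mouse, so that all cell types of the fat pad were measured together. The labels name neither the fat depot nor the age of the mice. In the same study, 4 vehicle and 4 fenretinide mice were sampled on day 29 (500 mg/kg). They are different animals from those of day 15, and they serve here as a second time point. The wider study profiled tissues in which hemangiosarcomas, tumours of endothelial cells, develop, and asked at what time proliferation or hypoxia can be seen there.

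Retinoids act through nuclear receptors of the RAR and RXR families, which bind DNA as pairs and switch on target genes when retinoic acid is bound. Cells limit the signal by storing retinol as retinyl esters and by oxidising retinoic acid with enzymes of the CYP26 family. White adipose tissue stores retinoids, secretes the retinol carrier RBP4, and expresses the receptors and enzymes of this system. Fenretinide is also known to inhibit the dihydroceramide desaturase DEGS1 and, in cultured tumour cells, to cause oxidative and endoplasmic reticulum stress.

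The arrays carried the markers of fat. Levels are given as log2 of the deposited intensity, and each gene was read from 1 probe set, so levels of different genes cannot be set against each other. The adipocyte hormone gene Adipoq lay between 14.82 and 14.99 and the resistin gene Retn between 14.77 and 14.98 over all 6 arrays. Ucp1, the uncoupling protein of brown fat, lay between 5.83 and 7.96 on day 15, while the same probe set reached 14.66 on day 29. Alb, a liver gene, was highest in 1 mouse of each group, at 10.69 in vehicle mouse 49 and 9.88 in fenretinide mouse 58, and lay between 7.36 and 8.66 in the other 4.

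Mouse 59 stood apart from the other treated mice, which were alike. Across probe sets, vehicle pairs correlated at 0.9893 to 0.9925 and mice 57 and 58 at 0.9938. Mouse 59 correlated with mice 57 and 58 at 0.9764 and 0.9728, within the range between vehicle and treated arrays (0.9700 to 0.9788). In 130 genes, mouse 59 alone lay at least 4-fold above all other arrays. In 99 genes, mice 57 and 58 together lay at least 4-fold above the other 4 arrays, and in 41 genes all 3 treated mice did. Vehicle mouse 50 stood alone in 12 genes, among them the inflammatory genes Socs3, Il6, Cxcl2 and Saa3, and vehicle mouse 49 in 2, the antibody genes Igkv8-30 and Jchain. Vehicle mouse 48, fenretinide mouse 57 and fenretinide mouse 58 stood alone in 0 genes at that mark. These gene names were chosen after their values were seen.

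The genes that set mice 57 and 58 apart included parts of motile cilia and epithelial transporters. Dynlrb2, a light chain of the dynein motor, was at 4.63, 4.43 and 4.39 in vehicle mice 48, 49 and 50 and at 10.06, 10.36 and 4.26 in fenretinide mice 57, 58 and 59. Mmp7, a matrix protease of glandular epithelia, was at 7.04, 7.08 and 7.06 in the vehicle mice and at 12.03, 12.12 and 7.06 in the treated mice. Slc7a9, a cystine transporter of renal and intestinal epithelium, was at 5.47, 5.44 and 5.28 against 10.94, 10.97 and 5.06. In each of these genes, mice 57 and 58 were high and mouse 59 lay at the vehicle level. Of 42 measured motile cilia genes, a list drawn up with these values in view, 37 had a change above 0 and the median change was 0.99. The mean of the list relative to the vehicle mice was 1.59 and 1.90 in mice 57 and 58 and 0.02 in mouse 59. With all arrays, 5 members were called higher, beside 3.19% of all genes. Leaving out any 1 of the other 5 arrays gave 1 such call. Leaving out mouse 59 gave 29, in a fit that called 902 of all 18193 genes higher.

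Mouse 59 carried another set. Serpina1f, a serine protease inhibitor gene, was at 4.52, 4.43 and 4.68 in vehicle mice and at 5.96, 4.38 and 14.37 in fenretinide mice 57, 58 and 59. Spink8, an inhibitor of serine proteases known from the epididymis, was at 5.85, 5.71 and 5.90 against 6.99, 5.64 and 14.36. Actg2, the enteric actin of smooth muscle, was at 6.10, 4.91 and 5.69 against 6.12, 6.47 and 12.69. These genes were far higher in mouse 59 than in any other array. Of 17 smooth muscle and pericyte markers, 0 were called, and their mean relative to vehicle was 0.23, 0.14 and 1.75 in mice 57, 58 and 59. Of 19 measured epididymis markers, 0 were called and 6 had a change above 0. Their mean relative to vehicle was 0.09, 0.09 and 1.23, carried by Spink8, Defb42 and Wfdc15b. Other members of the list, among them Lcn5, Lcn8, Gpx5 and Adam7, differed by -0.36 to -0.10 without a call. The comparison of the groups called 7 of the 130 genes high in mouse 59, 23 of the 99 high in mice 57 and 58, and all 41 high in the 3 treated mice. Of all genes, 3.74% were called. The 3 sets were picked by the values of the same 6 arrays, so their calls are no separate evidence.

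**Figure D1:**
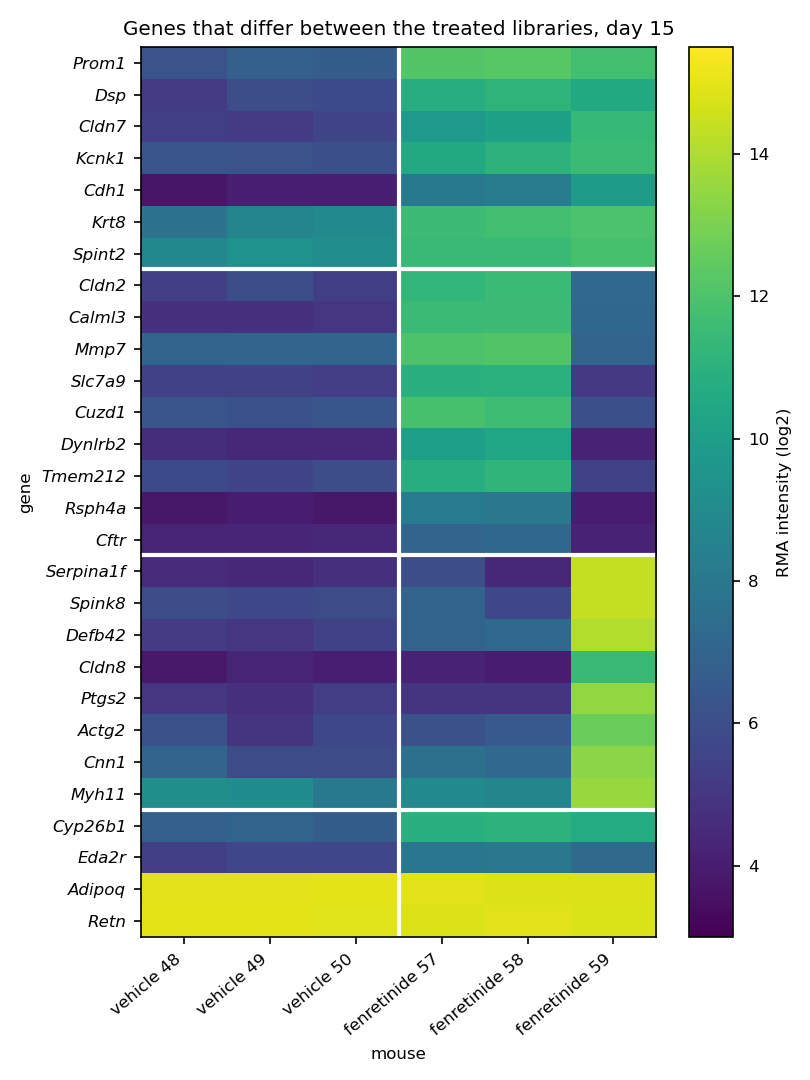
Level of 28 genes (rows) in each of the 6 day 15 mice (columns), as log2 of the deposited RMA intensity on the colour scale. White lines separate genes high in all 3 treated mice, in mice 57 and 58, and in mouse 59, and 4 genes for comparison. Dynlrb2 reached 10.06 and 10.36 in mice 57 and 58 and 4.26 in mouse 59, whereas Actg2 reached 12.69 in mouse 59.

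With these libraries included, limma called 681 of 18193 genes (adjusted p under 0.05), which is 3.74% of all genes. Of these, 580 genes (3.19% of all genes) were higher and 101 (0.555%) were lower with fenretinide, so that 85.2% of the called genes were higher. After each array was centred on its median, 467 genes were higher and 272 lower, or 63.2% higher. At least 2-fold, 329 genes rose and 6 fell, and at least 4-fold, 103 rose and 2 fell. Treated and vehicle values did not overlap in 679 of the 681 called genes, and in 27.9% of all genes. The median change over all genes was -0.04, and 42.3% of them had a change above 0. The number of called genes was 339, 441 and 324 without vehicle mouse 48, 49 or 50, and 398, 418 and 971 without fenretinide mouse 57, 58 or 59. Of the 681 genes, 257 were still called whichever array was left out, 240 of them higher and 17 lower. Among the 580 genes called higher, mouse 59 was the highest treated mouse in 238 and the lowest in 264, against 116 and 160 for mouse 57 and 226 and 156 for mouse 58.

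**Figure D2:**
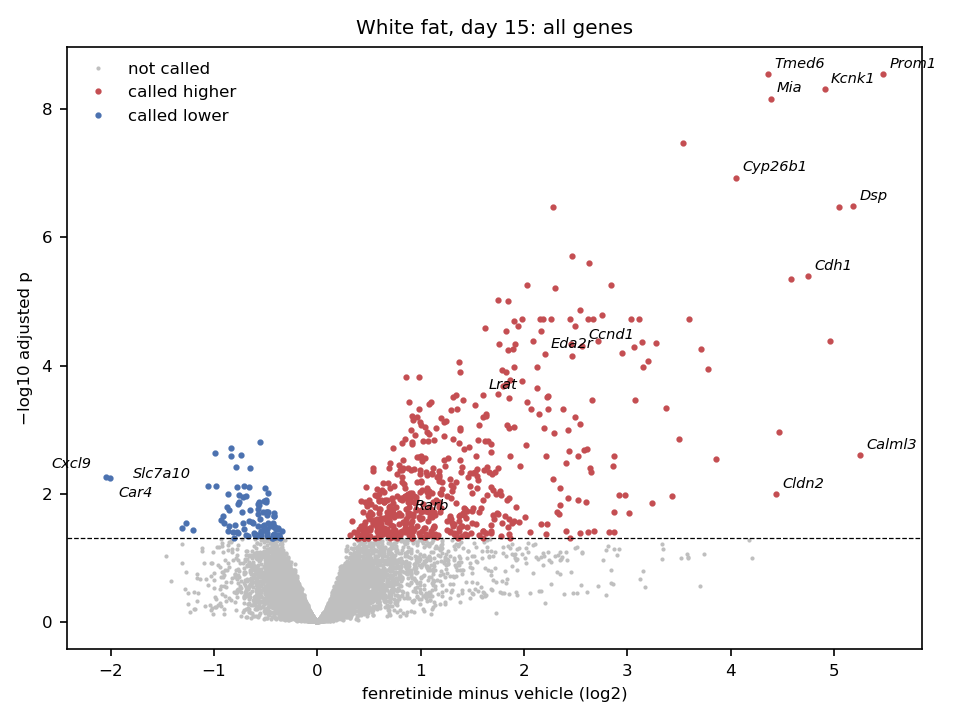
Change with fenretinide in white fat on day 15 (horizontal axis, log2) against the adjusted p of each gene (vertical axis, −log10) for 18193 genes. Red points are the 580 genes called higher, blue points the 101 called lower, and the dashed line marks the threshold of 0.05. The rises extend to 5.48 (Prom1) and the falls to -2.05 (Cxcl9).

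Within the retinoid system, a small number of genes rose strongly while most did not pass the test. Cyp26b1, which encodes an enzyme that oxidises and clears retinoic acid, was at 6.82, 7.04 and 6.68 in vehicle mice 48, 49 and 50 and at 10.93, 11.09 and 10.68 in fenretinide mice 57, 58 and 59. The groups lay far apart and all 3 treated mice were alike. Cyp26b1 rose by 4.05 ± 0.21 (log2 change ± SE), 16.6-fold, with an adjusted p of 1.16e-07, and the largest adjusted p with any array left out was 2.74e-06. Its relative Cyp26a1, the better known target of retinoic acid in liver and embryo, was at 6.32, 6.23 and 6.89 against 5.98, 6.88 and 6.59, a difference of 0.00 (adjusted p = 0.998). The other measured genes of retinoic acid breakdown, Cyp3a11 and Cyp2c39, were not called either, so that 1 of 4 was called higher (3.19% of all genes were).

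Storage was represented by Lrat, whose product joins retinol to a fatty acid to make retinyl esters. Lrat was at 4.86, 5.04 and 5.06 in vehicle mice and at 6.45, 6.87 and 6.45 in treated mice. The treated values were all above the vehicle values, and the rise was 1.60 ± 0.19 (adjusted p = 0.000293, at most 0.00272 with an array left out). Of the 6 measured genes of retinoid storage and release, Lrat alone was called, beside 3.19% of all genes called higher. The esterase and lipase genes Ces1f, Ces1d and Lipe, which release retinol from its esters, differed by -0.46, -0.37 and -0.28 without a call.

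Of the 6 receptor genes, Rarb, a retinoic acid receptor that is itself a target of retinoic acid, was called higher and Rxra, a partner receptor, was called lower. Over all genes, 3.19% were called higher and 0.555% lower. Rarb was at 6.61, 7.29 and 7.12 in vehicle mice and at 7.86, 8.07 and 7.75 in treated mice, a rise of 0.88 ± 0.19 (adjusted p = 0.0225). The groups did not overlap, although vehicle mouse 48 was lower than the other 2 vehicle mice. The adjusted p of Rarb was 0.0979 without vehicle mouse 48, and the call was also lost without vehicle mouse 50 or fenretinide mouse 57 or 58. Rxra fell by 0.40 ± 0.10 on the log2 scale (10.88, 10.86 and 10.77 against 10.46, 10.45 and 10.42, adjusted p = 0.0454), a call lost with each of the 6 arrays left out (adjusted p up to 0.149). Rara, Rarg, Rxrb and Rxrg differed by 0.09, 0.14, 0.12 and -0.15, none called.

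Few genes that carry, make or respond to retinoic acid were called (3.74% of all genes were called). Adh1, an alcohol dehydrogenase that can oxidise retinol, rose by 0.59 ± 0.14 (12.78, 12.67 and 12.57 against 13.38, 13.45 and 12.97, adjusted p = 0.0417), the only called gene of 18 for retinol and retinaldehyde oxidation, and it was called in 1 of the 6 fits with an array left out (adjusted p up to 0.146, without vehicle mouse 50). Rdh16, a retinol dehydrogenase, followed the pattern of mice 57 and 58 (4.61, 4.58 and 4.63 against 8.20, 8.46 and 4.41), a difference of 2.42 that was not called (adjusted p = 0.107). Of the 7 genes of uptake, binding and transport, 0 were called. Crabp1, which binds retinoic acid in the cytosol, showed that pattern too (4.30, 4.37 and 4.35 against 7.26, 7.60 and 4.28, adjusted p = 0.0819), with a difference of 2.04. Among them, Rbp4, the secreted retinol carrier, was at 13.77, 14.13 and 13.85 against 13.56, 13.56 and 13.20 (adjusted p = 0.0836), and Stra6, the cell surface receptor of that carrier, at 6.00, 6.12 and 5.88 against 5.87, 6.11 and 7.02 (adjusted p = 0.489). The Stra6 value was highest in mouse 59, and its change of 0.33 was -0.01 without that mouse. Of 20 measured retinoic acid target genes other than these, 1 was called, and it fell: Stra8, a gene of meiotic entry, by 0.54 ± 0.13 on the log2 scale (6.83, 7.06 and 7.04 against 6.50, 6.35 and 6.44, adjusted p = 0.0387), called in 0 of the 6 fits with an array left out (adjusted p up to 0.133). The target list had a median of 0.07 beside -0.04 over all genes.

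**Figure D3:**
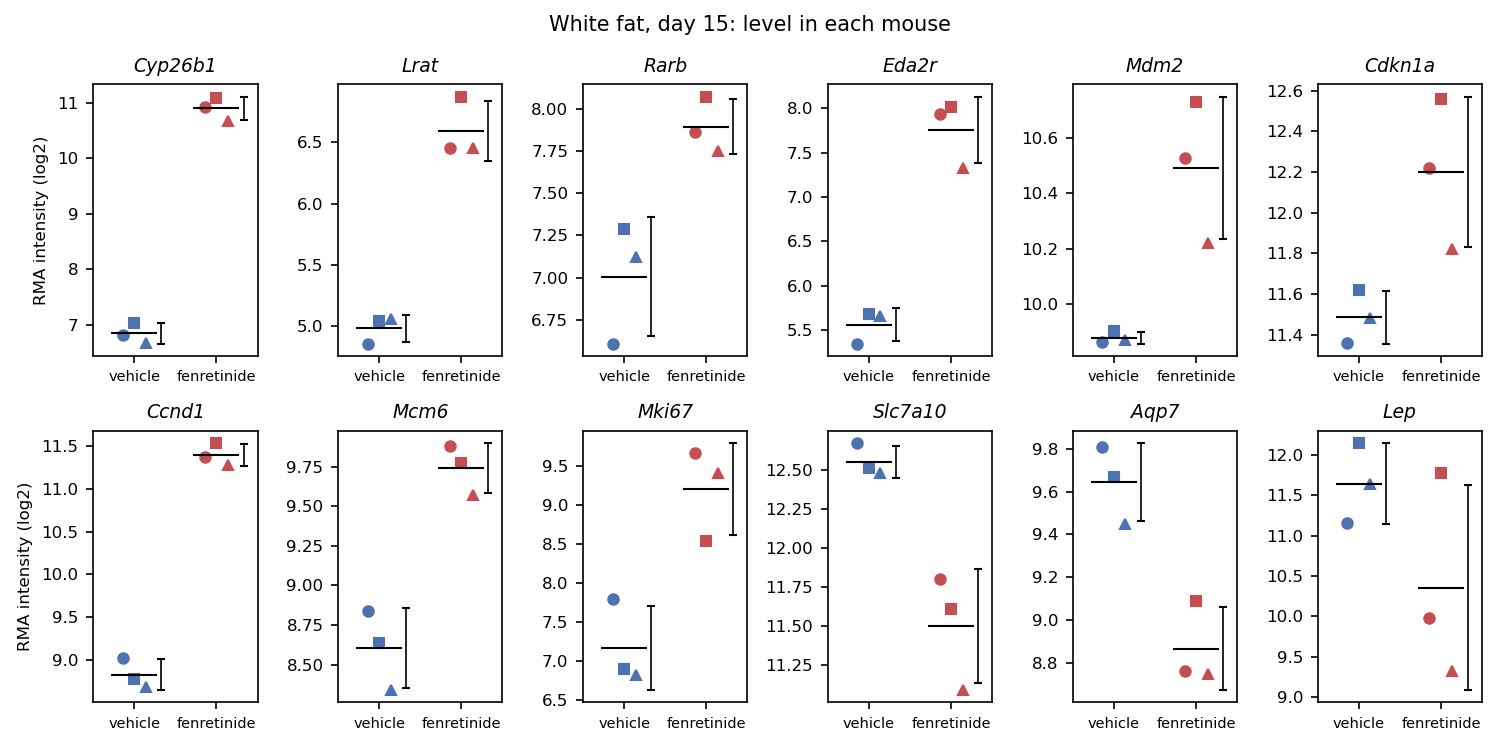
Level of 12 genes in each day 15 mouse (vertical axes, log2 of the deposited RMA intensity, each with its own range). Circles, squares and triangles are mice 48, 49 and 50 (vehicle, blue) and 57, 58 and 59 (fenretinide, red), lines are means and bars are SDs (n = 3 each). Cyp26b1 separated the groups by 4.05, while the 3 treated Lep values spread from 9.32 to 11.77.

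The promoter windows of these genes are shown because the response element of retinoic acid receptors can be looked for in them. The windows are from RefSeq (build GRCm38.p6) and run from 250 bases before to 50 bases after the transcription start, 5′ to 3′ on the strand of the gene. They are chr14:16575427-16575726 on the minus strand for Rarb, chr19:37697558-37697857 on the plus strand for Cyp26a1 and chr6:84593761-84594060 on the minus strand for Cyp26b1. The Rarb window lies inside the annotated span of the gene (chr14:16430839-17082331), so the start used for Rarb is not its outermost one. Capitals mark the element, the direct repeat DR5, which is 2 hexamers in the same orientation with a spacer of 5 bases. Each hexamer was searched on both strands as A or G, then G, then G or T, then TCA, so the hexamers of a repeat need not be identical.
Rarb: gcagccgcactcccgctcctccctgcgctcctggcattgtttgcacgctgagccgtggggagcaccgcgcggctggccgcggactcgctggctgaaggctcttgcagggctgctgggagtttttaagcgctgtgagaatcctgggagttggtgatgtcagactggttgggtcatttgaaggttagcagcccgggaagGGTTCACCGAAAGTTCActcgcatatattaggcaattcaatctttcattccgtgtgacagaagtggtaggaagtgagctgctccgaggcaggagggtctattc
Cyp26a1: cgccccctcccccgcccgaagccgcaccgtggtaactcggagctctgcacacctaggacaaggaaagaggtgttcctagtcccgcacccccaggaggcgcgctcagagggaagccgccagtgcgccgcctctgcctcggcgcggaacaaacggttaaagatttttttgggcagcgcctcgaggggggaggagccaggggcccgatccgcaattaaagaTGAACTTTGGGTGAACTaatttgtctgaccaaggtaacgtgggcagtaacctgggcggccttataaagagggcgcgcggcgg
Cyp26b1: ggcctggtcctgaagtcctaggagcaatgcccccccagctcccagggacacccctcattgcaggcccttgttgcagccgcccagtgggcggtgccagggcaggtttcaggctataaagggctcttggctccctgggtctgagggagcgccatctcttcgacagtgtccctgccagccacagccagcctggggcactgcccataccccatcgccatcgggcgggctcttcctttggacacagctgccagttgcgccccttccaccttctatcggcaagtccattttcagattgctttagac
In Rarb the repeat lies from 53 to 37 bases before the start on the gene's own strand, and in Cyp26a1 from 32 to 16 bases before the start on the opposite strand. The windows of Cyp26b1 and Lrat (chr3:82903925-82904224, minus strand) hold no match on either strand, which says only that these letters are not in this window. The repeat was found in 32 of 32851 promoter windows (0.0974%). Of the 11 genes with the repeat and a probe set, 1 was called on day 15, Rarb, against 3.74% of all genes. A match is a description of letters and was not tested as a binding site.

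Several p53 targets were higher. The tumour suppressor p53 switches on genes of cell cycle arrest, cell death and its own breakdown. Of 23 measured targets, 6 were called higher and 0 lower, beside 3.19% of all genes called higher, and 16 had a change above 0 with a median of 0.34. Eda2r, a receptor of the TNF family, was at 5.35, 5.68 and 5.66 in vehicle mice and at 7.93, 8.01 and 7.33 in treated mice. The groups were well separated, with a rise of 2.20 ± 0.22, 4.59-fold (adjusted p = 6.55e-05), called whichever array was left out. Ckap2, a spindle protein whose gene is also a proliferation gene, rose by 1.64 ± 0.27 (6.34, 6.24 and 6.22 against 8.10, 7.83 and 7.79, adjusted p = 0.00386) and was likewise called in each of the 6 fits. Perp, a p53 target that builds desmosomes in epithelia, rose by 3.08 ± 0.37 (5.54, 6.38 and 6.83 against 9.33, 9.79 and 8.87, adjusted p = 0.000348). The epithelial genes described below were high in the same libraries, and their part in the Perp value was not tested.

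Mdm2, the ubiquitin ligase that degrades p53, was at 9.86, 9.90 and 9.87 in vehicle mice and at 10.53, 10.73 and 10.22 in treated mice, with no overlap. Its rise was 0.62 ± 0.12 (adjusted p = 0.0128), and 2 of 3 Mdm2 probe sets went that way. Zmat3, an RNA-binding p53 target, rose by 0.76 ± 0.15 (9.20, 9.24 and 9.16 against 10.06, 10.04 and 9.79, adjusted p = 0.0164), and Pmaip1, the cell death gene also called Noxa, by 1.45 ± 0.33 (5.36, 5.05 and 5.95 against 7.23, 7.13 and 6.35, adjusted p = 0.0331). In these 3 genes mouse 59 was the lowest treated mouse. Each of the 3 was called in 2 of the 6 fits with an array left out, Mdm2 and Zmat3 not without vehicle mouse 48 or 50 or fenretinide mouse 57 or 58, and Pmaip1 not without vehicle mouse 48 or 49 or fenretinide mouse 57 or 58 (adjusted p up to 0.054, 0.0677 and 0.122). Cdkn1a, the p21 inhibitor of cyclin-dependent kinases, was at 11.36, 11.62 and 11.48 against 12.22, 12.56 and 11.82, groups that did not overlap, and was not called (0.71 ± 0.20, adjusted p = 0.0709). The list held 3, 5 and 4 genes called higher without vehicle mouse 48, 49 or 50 and 3, 3 and 7 without fenretinide mouse 57, 58 or 59. The p53 targets Sesn1, Sesn2, Btg2 and Fas differed by -0.06, -0.21, -0.15 and -0.38, none called.

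Of 22 measured Nrf2 targets, which answer oxidative stress, 3 were called higher (3.19% of all genes were) and 16 had a change above 0. The mean of the list relative to vehicle was 0.20, 0.23 and 0.51 in mice 57, 58 and 59. Ephx1, microsomal epoxide hydrolase, rose by 1.48 ± 0.25 (9.80, 10.32 and 10.08 against 11.75, 11.80 and 11.08, adjusted p = 0.00477), and Gstm2, a glutathione transferase, by 0.68 ± 0.12 (11.88, 12.10 and 11.95 against 12.52, 12.69 and 12.76, adjusted p = 0.0068). Gclc, which makes the first step of glutathione synthesis, rose by 0.45 ± 0.10 (adjusted p = 0.033, called in 1 of the 6 fits with an array left out, up to 0.135 without vehicle mouse 50). The classical targets Hmox1 and Nqo1 differed by 0.06 and 0.19 without a call, and the list had a median of 0.16. Of 25 genes of endoplasmic reticulum stress, 1 was called, the sensor kinase gene Ern1, which rose by 0.45 ± 0.11 (9.15, 9.08 and 9.10 against 9.45, 9.52 and 9.71, adjusted p = 0.0492). That call was lost with each array left out (adjusted p up to 0.138), only 1 of the 5 Ern1 probe sets moved that way, and the list had a median of -0.15.

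Of 24 genes of ceramide and sphingomyelin synthesis, 2 were called higher, beside 3.19% of all genes. Sgms2, a sphingomyelin synthase, was at 7.15, 7.76 and 7.76 in vehicle mice and at 9.56, 9.64 and 10.12 in treated mice, a rise of 2.22 ± 0.26 (adjusted p = 0.000315). Degs2, a desaturase that makes phytoceramide in epithelia, rose by 0.70 ± 0.13 (6.67, 6.61 and 6.46 against 7.43, 7.21 and 7.22, adjusted p = 0.00821). In both genes the groups did not overlap, as in 27.9% of all genes. Degs1, which encodes the enzyme that fenretinide is known to inhibit, was at 12.15, 12.34 and 12.35 against 12.30, 12.32 and 12.04, a difference of -0.06 (adjusted p = 0.86).

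Genes of DNA replication and mitosis were among those that rose. Of 26 measured replication genes, 8 were called higher and 0 lower (3.19% of all genes were called higher), 23 had a change above 0 and the median was 0.59. Mcm6, a subunit of the replicative helicase, was at 8.84, 8.64 and 8.34 in vehicle mice and at 9.88, 9.77 and 9.57 in treated mice, a rise of 1.13 ± 0.16 (adjusted p = 0.00148). Uhrf1, which carries DNA methylation through replication, rose by 1.06 ± 0.19 (5.87, 5.86 and 5.75 against 7.07, 6.87 and 6.70, adjusted p = 0.00817). Both were called whichever array was left out, and their groups did not overlap. Prim1, the DNA primase, and Rrm1, a subunit of ribonucleotide reductase, rose by 0.99 ± 0.18 and 0.72 ± 0.14 (adjusted p = 0.00947 and 0.012), calls lost without vehicle mouse 50 (adjusted p = 0.0542 and 0.0653). Rrm2 and Mcm5, the other subunit of that reductase and a helicase subunit, rose by 2.35 ± 0.47 and 1.41 ± 0.30 (adjusted p = 0.0148 and 0.02), calls lost without vehicle mouse 50 or fenretinide mouse 57 (adjusted p up to 0.0767 and 0.0994). The list held 7, 6 and 2 genes called higher without vehicle mouse 48, 49 or 50 and 4, 7 and 6 without fenretinide mouse 57, 58 or 59.

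Of 28 mitosis genes, 8 were called higher and 0 lower, beside 3.19% of all genes called higher. A change above 0 was seen in 26, and the median was 0.72. Cdk1, the kinase of mitotic entry, was at 7.74, 7.51 and 7.14 in vehicle mice and at 9.48, 8.51 and 9.45 in treated mice. Birc5, which encodes survivin, was at 6.41, 6.28 and 5.95 against 8.66, 7.58 and 8.59. Mice 57 and 59 were high and mouse 58 lay between them and the vehicle mice, a pattern shared by Cenpf, Ttk and Ccna2. The rises were 1.68 ± 0.41 for Cdk1 and 2.06 ± 0.50 for Birc5 (adjusted p = 0.0407 and 0.0404). The mitosis calls depended on single libraries: 0 genes were called without vehicle mouse 48, 49 or 50 or fenretinide mouse 57, 9 without fenretinide mouse 58 and 1 without fenretinide mouse 59, while the median stayed between 0.64 and 0.90. Mki67, the proliferation marker, was at 7.79, 6.89 and 6.82 against 9.66, 8.54 and 9.40 with no overlap, and was not called (2.04 ± 0.54, adjusted p = 0.0589). The mean of the mitosis list relative to vehicle was 1.01, 0.55 and 1.03 in mice 57, 58 and 59, and the mean of the general epithelium list 1.23, 1.41 and 2.12. The part of the epithelial RNA in the proliferation values was not tested.

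Among 21 D cyclins, G1 kinases and inhibitors, 3 were called higher and 1 lower, with a median of -0.07. Of all genes, 3.19% were called higher and 0.555% lower. Ccnd1, cyclin D1, which drives entry into the cycle, was at 9.03, 8.78 and 8.68 in vehicle mice and at 11.37, 11.53 and 11.28 in treated mice. All 3 treated mice were alike, and the rise was 2.56 ± 0.25, 5.92-fold (adjusted p = 4.88e-05), called whichever array was left out, and all 3 Ccnd1 probe sets were higher. Its kinase partners Cdk4 and Cdk6 rose by 0.48 ± 0.10 (adjusted p = 0.0144) and 1.45 ± 0.36 (adjusted p = 0.045). Cdk6 was high in mice 57 and 58 (10.13 and 10.15) and at 8.41 in mouse 59, just above the highest vehicle value of 8.31. The call of Cdk4 was lost without vehicle mouse 50 or fenretinide mouse 57 (adjusted p up to 0.0682), and Cdk6 was called only without fenretinide mouse 59 (otherwise up to 0.163). Cdkn2b, an inhibitor of both kinases, fell by 0.80 ± 0.18 on the log2 scale (9.07, 9.07 and 9.50 against 8.54, 8.30 and 8.40, adjusted p = 0.031), a call lost with each array left out (up to 0.133).

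Endothelial genes bear on the study's question about the cells from which hemangiosarcomas arise. Of 30 markers, 5 were called higher and 0 lower, beside 3.19% of all genes called higher. A change above 0 was seen in 22, and the median was 0.48. Emcn, a sialomucin of capillary and venous endothelium, was at 10.07, 10.09 and 9.84 in vehicle mice and at 10.95, 10.70 and 11.15 in treated mice, a rise of 0.94 ± 0.18 (adjusted p = 0.0108, 0.059 without vehicle mouse 50). Flt4, the receptor of lymphatic growth factors, rose by 0.74 ± 0.16 (adjusted p = 0.0233), and Cd93, a surface lectin of endothelium, by 1.07 ± 0.24 (11.70, 11.64 and 11.37 against 13.06, 12.52 and 12.33, adjusted p = 0.0269). Mmrn2 and Clec14a, which bind each other on endothelium, rose by 0.61 ± 0.14 and 1.10 ± 0.27 (adjusted p = 0.0273 and 0.0439). In these 5 genes vehicle and treated values did not overlap, as in 27.9% of all genes. Vehicle mouse 50 was the lowest mouse in Emcn, Flt4, Cd93 and Clec14a. In whole tissue, more cells of a type and more RNA per cell cannot be told apart. Without vehicle mouse 48, 49 or 50, 2, 2 and 0 markers were called, and without fenretinide mouse 57, 58 or 59, 1, 3 and 6. Flt4 was called in 3 of these fits, Mmrn2 in 2, Cd93 in 1 and Clec14a in 0 (adjusted p up to 0.1, 0.114, 0.115 and 0.171). Pecam1, a pan-endothelial adhesion molecule, was at 10.35, 10.16 and 9.76 against 10.90, 10.56 and 10.68 and was not called (0.63 ± 0.20, adjusted p = 0.114). Tek, Flt1, Cldn5 and Nos3, receptors, a junction protein and the nitric oxide synthase of endothelium, differed by -0.18, -0.09, -0.03 and -0.08, none called.

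Few angiogenic factors and hypoxia targets were called, in shares not below the 3.19% of all genes called higher. Of 32 angiogenic factors and receptors, 2 were called higher and the median was 0.07, and the groups did not overlap in 15, in either direction (27.9% of all genes did not overlap). Angpt2, which loosens vessels for sprouting, rose by 1.05 ± 0.26 (6.97, 7.55 and 7.09 against 8.39, 8.63 and 7.73, adjusted p = 0.0429), and Tgfb2 by 0.80 ± 0.19 (adjusted p = 0.0421). Angpt2 was called in 2 and Tgfb2 in 1 of the 6 fits with an array left out, and neither was called without vehicle mouse 48 (adjusted p = 0.157 and 0.136). Vegfa, the main growth factor of endothelium, was at 11.24, 10.94 and 11.37 in vehicle mice and at 10.70, 10.69 and 10.54 in treated mice, all below the vehicle values, and was not called (-0.54 ± 0.24, adjusted p = 0.264). Of 27 hypoxia targets, 1 was called, Ankrd37, which rose by 0.85 ± 0.19 (5.53, 5.80 and 5.33 against 6.24, 6.85 and 6.12, adjusted p = 0.0303) and was called in 2 of the 6 fits (up to 0.129 without vehicle mouse 50). The median of the hypoxia list was 0.06. Slc2a1, Car9 and Pgk1, a glucose transporter, a carbonic anhydrase and a glycolytic enzyme under the control of hypoxia, differed by 0.47, -0.29 and 0.21, none called.

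Most of the 20 largest rises among genes called whichever array was left out were in genes known from epithelial cells. That choice requires all 3 treated mice to lie above the vehicle mice. Outside it, Defb42, Bex1 and Dynlrb2 differed by 4.21, 4.18 and 3.74, were high in 1 or 2 treated mice and were not called. Of 27 general epithelium markers, 12 were called higher and 0 lower, beside 3.19% of all genes called higher. A change above 0 was seen in 23, and the median was 1.52. Prom1, a membrane protein of epithelial protrusions, was at 6.21, 6.81 and 6.68 in vehicle mice and at 12.17, 12.25 and 11.73 in treated mice. The treated mice were alike and far above the vehicle mice, a rise of 5.48 ± 0.18, 44.7-fold (adjusted p = 2.84e-09). Cdh1, E-cadherin, which joins epithelial cells, was at 3.76, 4.08 and 4.09 against 8.05, 8.27 and 9.84, a rise of 4.75 ± 0.33 (adjusted p = 4e-06). Esrp1, a splicing factor of epithelia, rose by 3.38 ± 0.42 (4.79, 4.89 and 4.70 against 7.24, 7.65 and 9.62, adjusted p = 0.000452). In Cdh1 and Esrp1 mouse 59 was the highest of the treated mice. Spint2, Erbb3, Prss8 and Cd24a, an inhibitor of membrane proteases, a growth factor receptor, such a protease and a surface glycoprotein, rose by 2.47, 2.54, 2.49 and 3.20. Epcam, the usual surface marker of epithelium, was at 8.69, 8.83 and 9.47 against 8.92, 8.72 and 9.08 and was not called (-0.09 ± 0.23, adjusted p = 0.875). The basal and ductal regulators Trp63, Ehf and Ovol2 differed by -0.20, -0.03 and -0.03, none called. With each array left out, 10 to 13 members of the list were called, and its median was 0.95 without mouse 59.

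Tight junction genes were also higher. Of 18 claudins and tight junction genes, 10 were called higher and 0 lower, beside 3.19% of all genes called higher. All 18 had a change above 0, with a median of 1.44 (0.96 without mouse 59). Cldn7 was at 5.31, 5.24 and 5.63 in vehicle mice and at 9.78, 10.15 and 11.37 in treated mice, a rise of 5.05 ± 0.29 (adjusted p = 3.4e-07). Cldn2, the claudin of leaky epithelia, was at 5.36, 6.01 and 5.34 against 11.27, 11.52 and 7.25, a rise of 4.44 ± 0.83 (adjusted p = 0.0103, 0.0497 without vehicle mouse 50). Cldn8, a claudin of tight ducts, was at 3.86, 4.29 and 4.03 against 4.25, 3.96 and 11.41 (adjusted p = 0.362). Cldn7 was thus high in all 3 treated mice, Cldn2 highest in mice 57 and 58, and Cldn8 high in mouse 59. Ocln, Tjp3, Marveld3, Marveld2 and Crb3, other parts of the tight junction and of epithelial polarity, rose by 3.14, 1.98, 1.86, 1.63 and 0.83. Of 15 desmosome and adherens junction genes, 7 had a change at or below 0 and the median was 0.07, and 4 were called higher: Dsp, the desmosomal plaque protein, by 5.19 ± 0.29 (5.17, 5.96 and 5.79 against 10.81, 11.12 and 10.57, adjusted p = 3.27e-07), Dsg2, a desmosomal cadherin, by 3.50 ± 0.50 (adjusted p = 0.00142), and Cdh1 and Perp. Of 18 keratins, 9 had a change at or below 0, the median was -0.00, and 2 were called, the pair of simple epithelia, Krt8 (3.28 ± 0.31, adjusted p = 4.4e-05) and Krt18 (3.15 ± 0.33, adjusted p = 0.000105). The keratins of stratified epithelium Krt5, Krt14 and Krt10 differed by 0.10, -0.07 and -0.04, none called.

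Other genes among the 20 largest rises include transporters and enzymes of secretory and renal epithelium. Kcnk1, a potassium channel, was at 6.24, 6.20 and 6.03 in vehicle mice and at 10.59, 11.08 and 11.54 in treated mice (4.91 ± 0.18, adjusted p = 4.85e-09). Arg2, the mitochondrial arginase, rose by 4.59 ± 0.33, Rnf128, a membrane ubiquitin ligase, by 4.96 ± 0.46, Rab17, a small GTPase of polarised sorting, by 3.60 ± 0.30, and Mia by 4.39 ± 0.17. In Calml3, a calmodulin-like protein of epithelia, mice 57 and 58 were at 11.52 and 11.56 and mouse 59 at 7.19, against 4.79, 4.76 and 4.98 in vehicle mice (5.25 ± 0.80, adjusted p = 0.00249). Cdh16, a cadherin of kidney and thyroid, and Pdzk1, a scaffold of brush border transporters, showed the same order, at 10.60, 10.53 and 7.37 and at 10.22, 10.44 and 8.72 in mice 57, 58 and 59. In Tmem30b, which belongs to a lipid flippase, the order was turned, at 8.91, 8.82 and 11.62. The remaining members of the 20, Tmed6, 4930426D05Rik and Ppp1r36, rose by 4.36, 3.78 and 3.54. Markers of single organs included few called genes. The lists are short, and where a member was called higher its share lay above the 3.19% of all genes. Of 19 mammary, 19 keratinocyte, 16 mesothelium, 12 kidney and urothelium and 10 prostate markers, 2, 1, 2, 1 and 1 were called higher, and of 14 intestine and lung and 11 vas deferens and seminal vesicle markers, 0 were. These called markers were Krt8 and Krt18 (in the mammary and the mesothelium lists), Calml3, Cdh16 and Tmprss2.

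**Figure D4:**
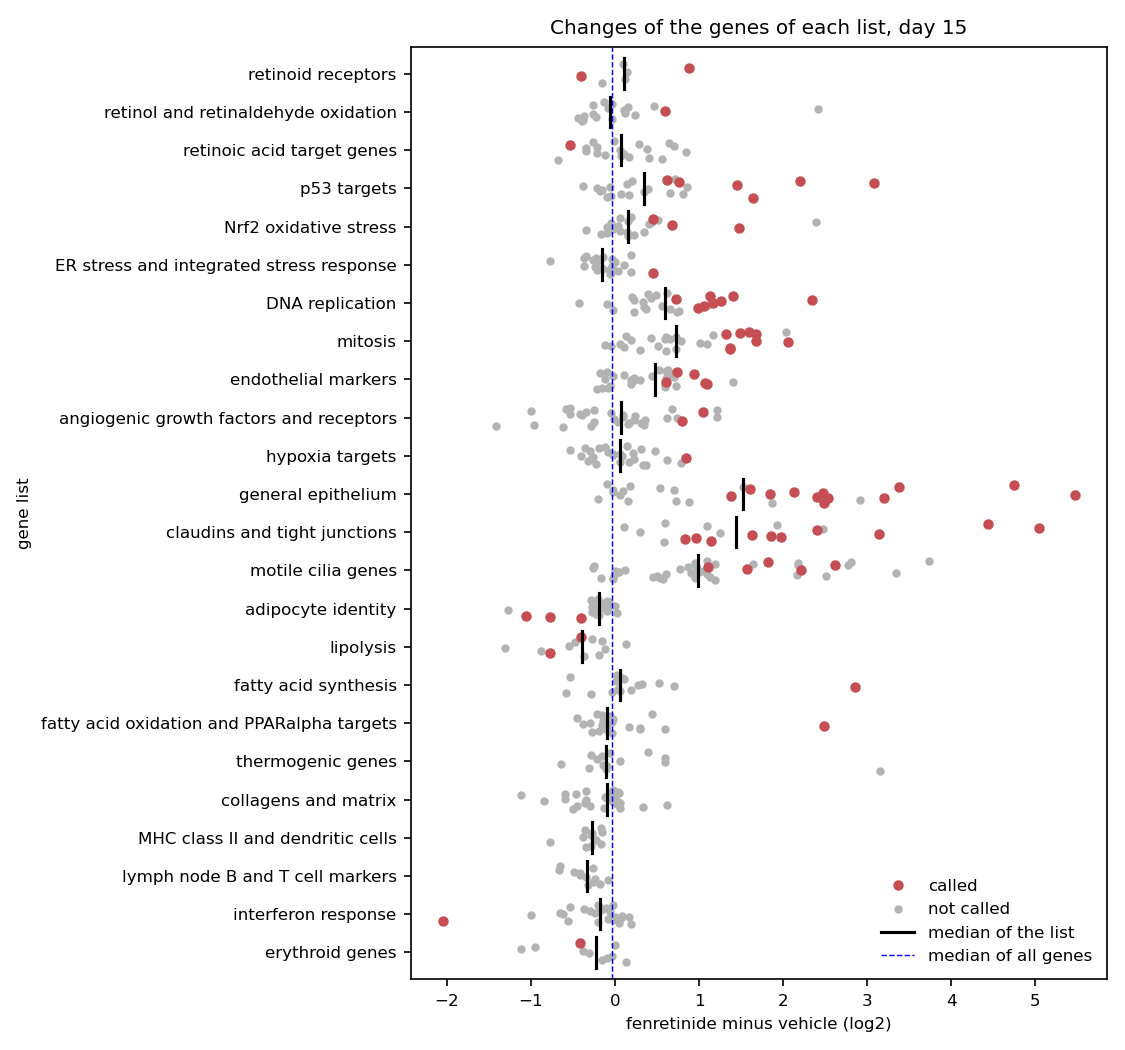
Change of each measured gene with fenretinide on day 15 (horizontal axis, log2) for 24 gene lists (vertical axis). Red points were called, grey points were not, black bars are list medians and the dashed line is the median of all genes (-0.04). The medians are 1.52 for general epithelium, 0.72 for mitosis, 0.48 for endothelial markers and -0.39 for lipolysis, and the motile cilia list was drawn up with these values in view.

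Adipocyte genes lay slightly lower in the treated mice. Of 21 adipocyte genes, 0 were called higher and 3 lower (0.555% of all genes were called lower), 1 had a change above 0 and the median was -0.19 (-0.10 without mouse 59). Slc7a10, an amino acid transporter of white adipocytes, was at 12.67, 12.51 and 12.48 in vehicle mice and at 11.80, 11.61 and 11.09 in treated mice. The groups did not overlap, and Slc7a10 fell by 1.06 ± 0.19 on the log2 scale (adjusted p = 0.00769). Aqp7, the channel through which glycerol leaves adipocytes, fell by 0.78 ± 0.14 on the log2 scale (9.81, 9.67 and 9.45 against 8.76, 9.09 and 8.75, adjusted p = 0.00778). Both were called whichever array was left out. Pnpla2, the first lipase of lipolysis, fell by 0.41 ± 0.09 on the log2 scale (14.12, 14.03 and 14.14 against 13.78, 13.62 and 13.66, adjusted p = 0.0336), a call lost with each array left out (up to 0.118). The regulators Pparg and Cebpa and the lipid droplet gene Cidec differed by -0.20, -0.29 and -0.26, none called, and Adipoq by -0.09 (adjusted p = 0.586). Lep, the satiety hormone leptin, was at 11.15, 12.14 and 11.64 against 9.98, 11.77 and 9.32 and was not called (-1.28 ± 0.63, adjusted p = 0.309). Mouse 58 lay among the vehicle mice.

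Of 12 lipolysis genes, 11 had a change at or below 0, with a list median of -0.39. The 2 called, Aqp7 and Pnpla2, fell, beside 0.555% of all genes called lower. Hcar1, the lactate receptor that restrains lipolysis, was at 11.67, 10.82 and 11.65 against 10.31, 9.88 and 10.01, below every vehicle mouse, and was not called (adjusted p = 0.0622). Of 17 lipid synthesis genes and 24 oxidation genes, 1 each was called higher, beside 3.19% of all genes. These 2 genes had large rises. Fads2, a desaturase of polyunsaturated fatty acids, rose by 2.86 ± 0.46 (7.90, 8.10 and 8.02 against 10.02, 10.27 and 12.30, adjusted p = 0.00371), and Acot1, a cytosolic acyl-CoA thioesterase, by 2.49 ± 0.32 (5.79, 5.93 and 5.62 against 8.31, 8.82 and 7.67, adjusted p = 0.000646). The highest Fads2 value was in mouse 59. The other 16 synthesis genes, such as Fasn (0.08) and Scd1 (0.01), and the other 23 oxidation genes were not called. Of 14 thermogenic genes, 0 were called. Their changes ran from -0.64 to 3.15, with a median of -0.11. Ucp1 overlapped between the groups (7.62, 6.17 and 5.83 against 6.39, 7.96 and 6.45), with a change of 0.39 that was -0.12 without fenretinide mouse 58.

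Some stromal and immune genes fell. Cxcl9, a chemokine induced by interferon gamma that draws T cells, was at 11.14, 10.69 and 10.60 in vehicle mice and at 8.82, 8.47 and 9.01 in treated mice. It had the largest fall of the genes called in every fit, 2.05 ± 0.35 on the log2 scale, to a level 4.14-fold lower (adjusted p = 0.00546). Of 25 interferon genes, Cxcl9 alone was called, beside 0.555% of all genes called lower. A change at or below 0 was seen in 19, and the list median was -0.18. Car4, a carbonic anhydrase of capillary surfaces, fell by 2.01 ± 0.35 on the log2 scale (10.92, 10.74 and 10.49 against 9.16, 7.83 and 9.15, adjusted p = 0.0058). Of 26 chemokines and cytokines, 2 were called lower (0.555% of all genes were) and 0 higher. Their median of -0.46 was -0.17 without vehicle mouse 50, the mouse with the high Il6 (7.70) and Cxcl2 (9.08). The other called member, Cxcl17, fell by 0.49 ± 0.12 on the log2 scale (adjusted p = 0.0457), a call lost with each array left out (up to 0.16).

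All 12 genes of MHC class II and dendritic cells and all 12 B and T cell markers had changes below 0, with medians of -0.28 and -0.34, and 0 of either were called. Over all genes, 3.74% were called, 42.3% had a change above 0 and the median was -0.04. Macrophage markers, 24 in number, had 0 calls and a median of -0.04. Ly9, a receptor of lymphocytes, and Cd209d, a lectin of macrophages and dendritic cells, fell by 0.51 ± 0.09 and 0.86 ± 0.16 on the log2 scale (adjusted p = 0.00827 and 0.0101). Of 28 collagens and matrix genes, 0 were called. Adamts5, an aggrecanase, fell by 0.72 ± 0.14 on the log2 scale (11.76, 11.76 and 11.71 against 10.99, 11.27 and 10.81, adjusted p = 0.0114), and all 4 Adamts5 probe sets were lower. Mmp9, a gelatinase, rose by 0.75 ± 0.18 (7.39, 7.47 and 7.65 against 8.08, 8.07 and 8.59, adjusted p = 0.0371), a call lost with each array left out (up to 0.133). Ccdc80, a secreted protein of preadipocytes, fell by 0.87 ± 0.18 on the log2 scale (14.54, 14.52 and 14.79 against 13.88, 13.61 and 13.76, adjusted p = 0.0164), the 1 call among 16 fibroblast and preadipocyte genes, lost without vehicle mouse 50 or fenretinide mouse 58 (up to 0.0804). Zeb2, a transcription factor known to repress E-cadherin, fell by 0.66 ± 0.12 on the log2 scale (9.45, 8.98 and 9.11 against 8.59, 8.52 and 8.45, adjusted p = 0.00784), and all 5 Zeb2 probe sets were lower. Opn3, an opsin known to sense light in adipocytes, fell by 0.99 ± 0.15 on the log2 scale (12.17, 12.03 and 12.16 against 11.53, 10.94 and 10.93, adjusted p = 0.00236), Insig2, which holds back sterol synthesis, by 0.55 ± 0.08 (adjusted p = 0.00155), and Negr1, a neural adhesion molecule, by 0.98 ± 0.18 (adjusted p = 0.00767). The other genes that fell whichever array was left out were Osgin2 (-0.84), A530053G22Rik (-0.84), Pkd2l2 (-0.79), Cnnm2 (-0.74), Wfdc12 (-0.71) and Sox6os (-0.65).

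With the second time point, some genes called on day 15 were also called on day 29, and some had a called difference between the days. Others had neither. The effect of fenretinide differed between the days (the day 29 change minus the day 15 change, tested in the same fit) in 219 of all genes, or 1.2%. The count was 669 without fenretinide mouse 59, 118 and 126 without vehicle mouse 48 or 50, and 137 without either fenretinide mouse 58 or vehicle mouse 83 of day 29. Of the 681 genes called on day 15, 195 were among them, 190 of them genes called higher whose change was smaller on day 29. The 580 genes called higher had a median change of 1.11 on day 15 and 0.03 on day 29, and the 101 called lower had medians of -0.57 and -0.16. Prom1 was at 6.29 to 6.83 in the vehicle mice and at 6.45 to 6.61 in the treated mice of day 29, where its change was -0.08. The mean of the general epithelium list relative to vehicle ran from -0.06 to 0.06 over the 4 treated mice of day 29, and that of the motile cilia list from -0.11 to 0.05.

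Cyp26b1, Lrat, Rarb and Eda2r were called higher on both days. On day 29, Cyp26b1 was at 6.53, 7.17, 7.21 and 6.94 in vehicle mice and at 11.07, 10.35, 10.61 and 10.93 in treated mice, a rise of 3.77 ± 0.18. Lrat rose by 2.14 ± 0.16, Rarb by 0.91 ± 0.16 and Eda2r by 2.26 ± 0.19 on day 29. The differences from day 15 were -0.28, 0.54, 0.03 and 0.06, none called (adjusted p = 0.688, 0.351, 0.974 and 0.947). Mdm2 and Zmat3 were also called on day 29 (0.50 and 0.69). Pmaip1 and 5 other genes called on day 15 were not called on day 29, where Rxra, Adh1 and Stra8 differed by -0.10, 0.15 and -0.17, and Ckap2 and Perp by 0.44 and -0.60. Of these 6 genes, only Perp had a called difference between the days (-3.68, adjusted p = 0.00181). The change of Ccnd1 was 1.11 ± 0.21 on day 29 and 2.56 ± 0.25 on day 15, a difference that was not called (-1.45 ± 0.33, adjusted p = 0.0555). Mcm6 differed by -0.32 on day 29 without a call, and its difference between the days was called (-1.46 ± 0.21, adjusted p = 0.00389), as was that of Uhrf1 (-1.17 ± 0.25, adjusted p = 0.0461). On day 29 the mitosis genes Cdk1, Birc5 and Mki67 differed by 0.05, 0.00 and -0.11. The mean of the mitosis list relative to vehicle was -0.08, -0.32, -0.14 and -0.17 in the treated mice, against 1.01, 0.55 and 1.03 on day 15. These day 29 values rest on a vehicle mean raised by mouse 86. The list means of vehicle mice 81, 83, 85 and 86 were -0.39, -0.29, -0.12 and 0.81. Cdk1 was at 7.83, 7.85, 8.05 and 9.66 in these mice and at 8.52, 8.19, 8.46 and 8.44 in the treated mice of day 29. The differences between the days of the mitosis and endothelial genes named above were not called, such as Cdk1 (-1.63 ± 0.54, adjusted p = 0.196) and Emcn (-0.34 ± 0.23, adjusted p = 0.541). Lep fell on day 29, by 2.74 ± 0.54 on the log2 scale (adjusted p = 0.035), and the difference from day 15 was not called (-1.46 ± 0.83, adjusted p = 0.45).

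In all, 46 genes were called on both days, 6.75% of the 681 called on day 15 and 20.3% of the 227 called on day 29, beside 1.25% of all genes called on day 29. Both calls use the variance of each gene from the same 14 arrays. The days have no mice in common, and the 46 were picked out after their values were seen. In 44 the direction was the same, 30 higher and 14 lower, and in 2, Gpr155 and Map7, it was opposite. The 30 include Tmem255a (2.23 on day 15 and 2.12 on day 29), Clca2, a protein of p53-responsive and squamous cells (2.52 and 1.97), Id4, an inhibitor of DNA-binding factors (1.55 and 1.45), Fcna, a ficolin of innate immunity (1.87 and 1.15), Ada, adenosine deaminase (1.31 and 0.84), Slc2a9, a urate transporter (1.29 and 0.93), Cd93, Mdm2, Zmat3, Cyp26b1, Lrat and Rarb. The 14 include Adamts5 (-0.72 and -1.56), Cd209d (-0.86 and -1.15), Slc7a10, Cdkn2b and Ccdc80. Among the 44, Sox4, a transcription factor of progenitor cells (1.83 and 0.68), and Adamts5 had a called difference between the days (adjusted p = 0.0225 and 0.0465). Of the 46 genes, 22 were called on day 15 whichever of the 6 arrays was left out.

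**Figure D5:**
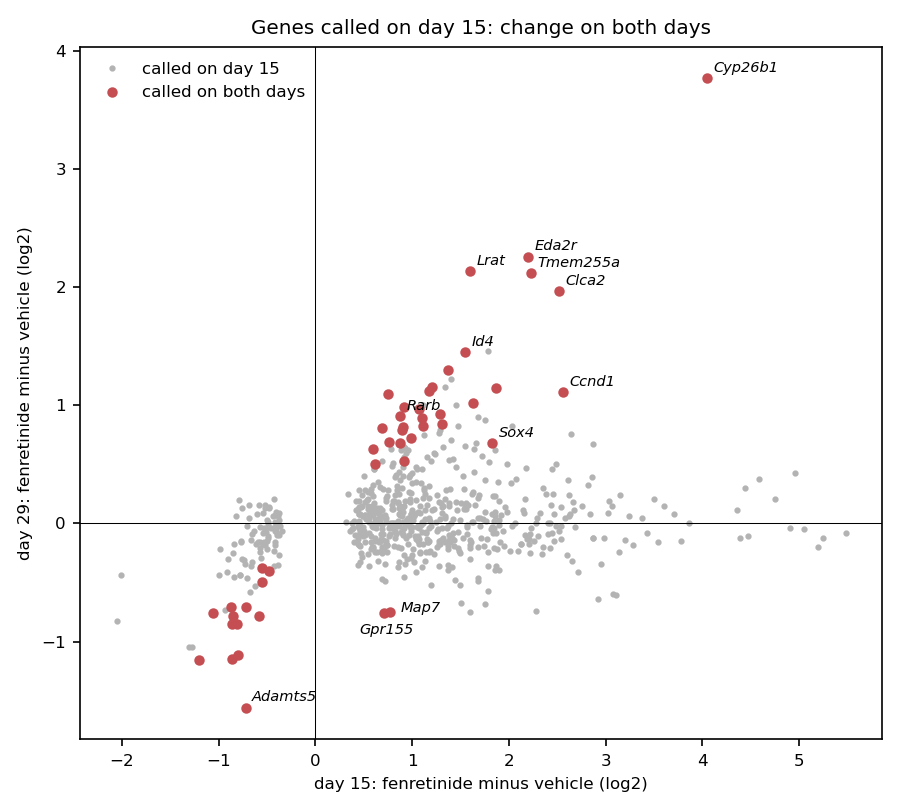
Change with fenretinide on day 15 (horizontal axis, log2) and day 29 (vertical axis, log2) for the 681 genes called on day 15. Red points are the 46 genes called on both days. Cyp26b1 lies at 4.05 and 3.77, while the largest rises of day 15 lie near 0 on day 29.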

How the data were processed

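RNA of white adipose tissue of 6 mice was compared, 3 vehicle and 3 fenretinide. The authors deposited linear intensity values, made by RMA (robust multi-array average) per the submitters' processing notes. The RMA version and the set of arrays it was run on are not stated in the labels. Deposited intensity ran from 7.44 to 39426 over the 74 arrays, and log2 was taken here. Of 45101 probe sets, 34945 carried 1 symbol, 932 several and 9160 none in the annotation of the platform, and 64 were controls. Of the 34945, 34741 matched RefSeq by gene ID.

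The test was limma 3.58.1 in R 4.3.3 (lmFit, eBayes), with 1 mean per group for the 14 white fat arrays of days 15 and 29, tested on simulated data. Benjamini-Hochberg adjusted p-values over 34945 probe sets were called below 0.05, with no filter on dim probe sets. A gene was read from its brightest probe set (mean over 74 arrays, 18193 genes). The number of arrays limits the precision. Figures used Python 3.11.15 and matplotlib 3.10.9.

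Members and gene lists were chosen with earlier results of these data known. Named by rule were the 20 largest rises and falls (17 falls qualified) among genes called with each of the 6 arrays left out and groups that did not overlap, up to 6 called members of each list, uncalled list members, and 13 fixed genes. A list's mean in a mouse is the mean, over its genes, of the level minus the vehicle mean of that day. Other settings were another choice of probe sets, a filter, scalings, eBayes options, array weights, a fold threshold, 6 arrays alone and each array left out.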

Additional observations from a re-analysis of the deposited data

Results flagged for a closer look

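The effect of fenretinide differed between day 29 and day 15 in 40 of the named genes, by the test of the difference in the same limma fit (adjusted p under 0.05). Each value below is the day 29 change minus the day 15 change, on the log2 scale. Of the largest rises of day 15, mostly epithelial genes, the difference was called for Prom1 (-5.56), Calml3 (-5.36), Dsp (-5.39), Cldn7 (-5.10), Rnf128 (-4.53), Kcnk1 (-4.96), Cdh1 (-4.54), Arg2 (-4.21), Tmem30b (-4.58), Mia (-4.51), Tmed6 (-4.25), Cdh16 (-3.86), 4930426D05Rik (-3.93), Pdzk1 (-3.64), Rab17 (-3.45), Ppp1r36 (-3.71), Dsg2 (-3.30) and Esrp1 (-3.32). Other epithelial and junction genes with a called difference were Krt8 (-3.46), Krt18 (-2.91), Tjp3 (-1.89), Ocln (-3.38), Marveld3 (-2.25), Marveld2 (-1.36), Crb3 (-0.85), Spint2 (-2.39), Erbb3 (-2.68), Prss8 (-2.51), Cd24a (-3.34), Tmprss2 (-2.40) and Perp (-3.68). In each of these genes the day 29 change was smaller than the day 15 change. On day 29 their own changes ran from -0.60 (Perp) to 0.43 (Rnf128).

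Genes of replication, lipid handling, hypoxia and detoxification with a called difference were Sgms2 (-2.46), Acot1 (-1.99), Mcm6 (-1.46), Ankrd37 (-1.21), Uhrf1 (-1.17), Degs2 (-0.90) and Gstm2 (-0.81), all with a smaller change on day 29. Of genes that fell on day 15, Pkd2l2, a calcium channel relative, had a difference of 0.99, with changes of -0.79 on day 15 and 0.20 on day 29. Adamts5 had a difference of -0.84, since its fall was larger on day 29 (-1.56) than on day 15 (-0.72). On day 29, 1 treated mouse was above the other 3 in Dsg2 (7.09), Rnf128 (7.38), Tmem30b (6.59) and Dsp (6.81), each below the level of every treated mouse of day 15. The cause of these differences was not tested.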

How the results depend on the processing

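Counts of called genes moved with the setting. From 681 genes (580 higher, 101 lower), dropping the dimmer 50% of probe sets left 419 (339 higher), the 6 day 15 arrays alone 332 (289 higher, 43 lower), and array weights, which gave mouse 59 a weight of 0.539 and mouse 57 one of 1.948, gave 1720 (1235 higher, 485 lower). The count of lower genes was 173 with the mean of a gene's probe sets, 164 with quantile normalization, 272 with median centring and 46 with a fold threshold of 1.5. Leaving out 1 array gave 324 (without vehicle mouse 50) to 971 genes (without fenretinide mouse 59), 278 to 902 higher and 37 to 69 lower. The 219 genes that differed between days became 91 without dim probe sets, 565 with array weights, and 118 (without vehicle mouse 48) to 669 (without fenretinide mouse 59) with 1 of 14 arrays left out. The other settings kept these counts within 1.5 times, among them 1 probe set per gene and trended and robust eBayes. Where an alternative tests fewer probe sets or arrays, that is part of its construction, and otherwise the cause was not tested.

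For 106 named genes, 98 of them called, 1442 values under alternatives kept direction and side of the threshold in 1219, lost the call in 217, gained it in 4 and turned direction in 2. The latter were Stra6 without fenretinide mouse 59 (-0.01, up to 0.56 without mouse 57) and Ucp1 without fenretinide mouse 58 (-0.12, up to 0.93 without vehicle mouse 48), neither called. No paired analysis was possible because the mice of the compared groups share no numbers. With 3 mice a group, small changes are measured with little precision.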

Other observations

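Several gene groups outside the main account were measured on day 15. Of 18 genes of cholesterol synthesis, 17 of circadian clock output, 14 of the glucocorticoid response and 14 adipokines, 0 were called, with medians of -0.01, 0.13, -0.03 and -0.21. Over all genes, 3.74% were called and the median was -0.04. Single changes ran from -0.68 to 3.52 in the glucocorticoid list and from -1.28 to 3.52 in the adipokine list. Of 12 skeletal muscle markers 0 were called, and their mean relative to vehicle was 0.55 in mouse 59 and -0.14 and -0.15 in mice 57 and 58. Of 11 hepatocyte markers 0 were called, and their mean was highest in vehicle mouse 49 (0.86) and fenretinide mouse 58 (0.58). Of 10 erythroid genes, 1 was called, Hba-a1, a globin gene, beside 0.555% of all genes called lower. Its probe set was dim, at 4.89, 4.75 and 4.84 against 4.43, 4.49 and 4.29, where the array medians were 7.235 to 7.372. The fall was 0.42 ± 0.09 on the log2 scale (adjusted p = 0.0227). It was called without vehicle mouse 49 or fenretinide mouse 58 but in none of the other 4 fits with an array left out (up to 0.0999). Of 14 pancreas and salivary gland markers, Amy1, an amylase gene, fell by 0.71 ± 0.17 on the log2 scale (adjusted p = 0.0359), called without vehicle mouse 48 but in none of the other 5 fits (up to 0.146). Plasma cell and immunoglobulin genes, 8 in number, had 0 calls and a median of -0.35.

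On day 29 the 28 collagens and matrix genes had means relative to vehicle of -0.42, -0.58, -0.88 and -0.49 in the 4 treated mice, against -0.19, -0.13 and -0.25 in the treated mice of day 15. The difference between the days was not tested for the list.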
